A study of Mus musculus with 6 samples.

Results

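The genes described here were 10 steroid-metabolizing enzymes of the liver (Hsd3b2, Hsd3b3, Hsd3b5, Akr1c6, Akr1c18, Akr1d1, Srd5a1, Srd5a2, Hsd11b1 and Hsd17b13), of 18444 genes listed in at least 1 library. They were chosen by symbol, and all 10 were found in the files. The libraries came from frozen livers of male C57BL/6 mice (C57BL/6J in the study's methods) labelled 6 to 8 weeks of age, with 1 library for each of 6 groups. In the diet model, SD (labelled CD, the chow control) was set beside HFD (a high-fat diet, labelled NASH, the inflamed form of fatty liver disease) and beside HFD+JT003. In the fibrosis model, Oil (the vehicle) was set beside CCl4 (carbon tetrachloride in oil, a hepatotoxin that scars the liver) and beside CCl4+JT003. JT003 is a peptide derived from adiponectin that activates the receptors AdipoR1 and AdipoR2. By the study's methods the diet ran for 16 weeks and CCl4 was given every 3 days for 6 weeks, with JT003 at 500 µg/kg daily for 4 weeks in the diet model and 3 weeks in the CCl4 model. The methods also describe a diet lacking methionine and choline in the NASH mice, and the labels do not say whether the HFD library came from such mice, nor whether a library is 1 mouse or a pool. The labelled age is shorter than the 16-week diet, so it is not the age at harvest there. No age at harvest is stated. The question put to these genes was how each enzyme differed between each model and its control, and between JT003 and the untreated model.

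Steroid hormones are made mainly in the adrenal gland and gonads, and the liver is the main site where they are reduced, inactivated and, for glucocorticoids, reactivated. The 3β-hydroxysteroid dehydrogenases (Hsd3b genes) act on the 3-position of the steroid ring: Hsd3b2 and Hsd3b3 belong to the group that oxidizes it and moves the neighbouring double bond, whereas Hsd3b5 is a male-biased liver enzyme that works as a 3-ketosteroid reductase. The aldo-keto reductases Akr1c6 and Akr1c18 reduce the 17- and the 20-keto group (Akr1c18 inactivates progesterone in the ovary), and Akr1d1 is the 5β-reductase of steroids and of bile acid intermediates. Srd5a1 and Srd5a2 are the 5α-reductases that make dihydrotestosterone. Hsd11b1 regenerates active glucocorticoid in the endoplasmic reticulum, and Hsd17b13 is a lipid-droplet protein of hepatocytes that carries a 17β-hydroxysteroid dehydrogenase name and also acts on retinol.

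Depth was similar in the 6 libraries, with 19374236 to 20184557 rounded expected counts and 16083 to 16738 genes listed. Scaling by total reads in place of TMM (trimmed mean of M values) moved the median log2 ratio of all genes to 0.12 in HFD over SD and to 0.23 in CCl4 over Oil, and the calls for higher expression from 502 of 924 to 637 of 970 and from 827 of 1251 to 1239 of 1516. It moved them from 545 of 1018 to 733 of 1097 in HFD+JT003 over SD, from 570 of 877 to 1096 of 1273 in CCl4+JT003 over Oil and from 382 of 939 to 306 of 1020 in Oil over SD. The tissue label held against its markers: the summed FPKM (fragments per kilobase of transcript, scaled to library size) of 7 hepatocyte markers was 48070 to 59026. Of 9 markers of steroidogenic glands, 4 or 5 had reads in a library, and their summed FPKM was 7.65 to 24.0. Cyp17a1 reached 21.1 FPKM in SD and Cyp21a1 16.35 in HFD. Cyp11b1 and Cyp11b2 were listed in no library, and Cyp11a1 had no reads except for a single count in CCl4. With 1 library per group, each comparison below is between 2 libraries and has no replicate check. Intervals are 95% Clopper-Pearson intervals that cover counting error only. A gene was called, and is said to have risen or fallen, when the exact binomial test on the reads gave an adjusted p under 0.001 over all genes with a read and the log2 ratio, with a prior count of 2, was at least 1 in size. In a bulk liver library, fewer cells that express a gene and less RNA per cell cannot be told apart.

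By FPKM, Hsd17b13, Akr1c6 and Hsd11b1 held 79.3% to 91.3% of the summed level of the 10 enzymes in each library. Hsd17b13 was the highest of the 10 in SD, Oil, CCl4 and CCl4+JT003, and Akr1c6 was the highest in HFD and HFD+JT003. Together the 10 genes took 0.124% of the counts in SD and 0.244% in HFD+JT003, the lowest and the highest share. Akr1c18 and Hsd3b5 had the widest ranges, 257-fold and 248-fold from the lowest to the highest library in scaled counts (CPM), and Hsd11b1 had the narrowest at 1.70-fold. Srd5a2 never passed 31 counts, and none of the neighbours in the order of its 6 levels were separated by their counting intervals.

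**Figure D1:**
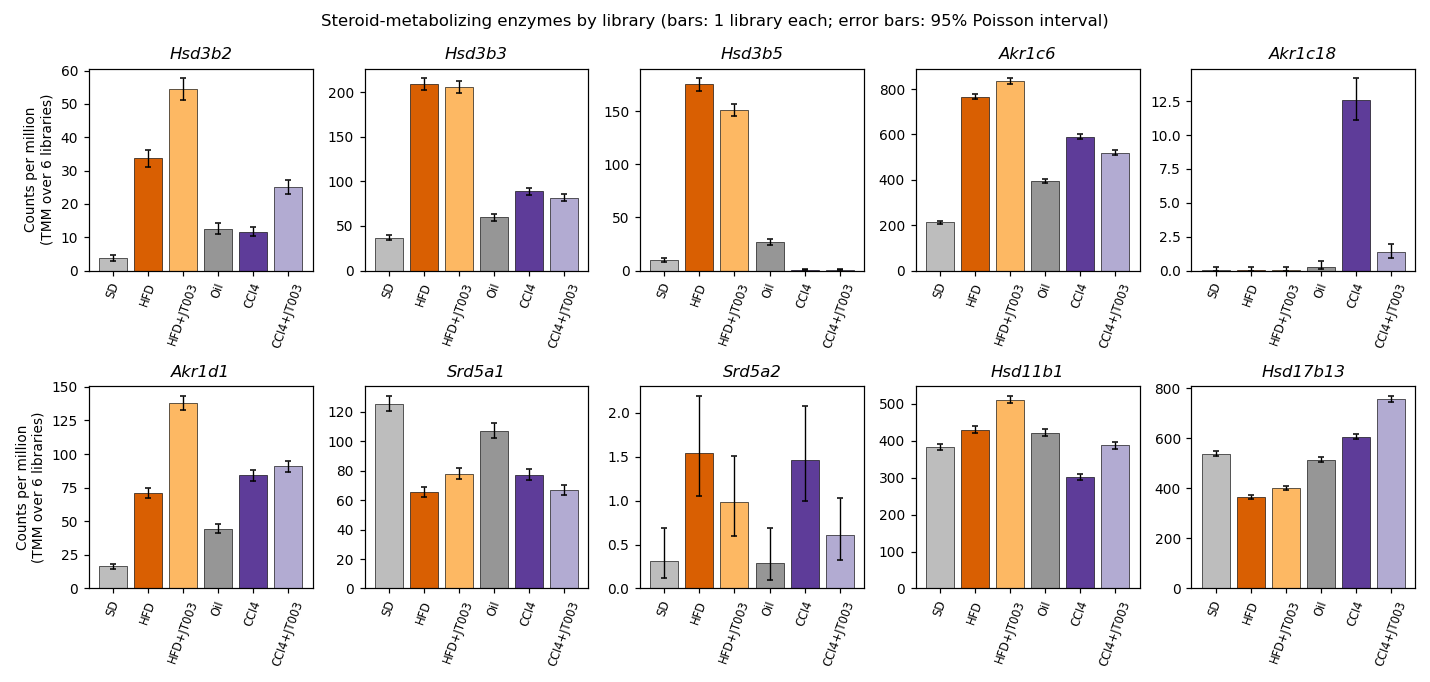
CPM values, scaled by TMM over the 6 libraries, for each of the 10 enzymes (1 bar per library, each panel with its own linear axis from 0, error bars are 95% Poisson intervals). Hsd3b5 stands at 175 in HFD against 0.71 in CCl4, and Akr1c18 at 12.6 in CCl4 against 0.29 in Oil.

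In HFD over SD, 6 of the 9 enzymes above 3 counts rose and none fell, against 5.44% of all genes called in either direction and 2.96% called higher. Those 6 were Hsd3b2, Hsd3b3, Hsd3b5, Akr1c6, Akr1d1 and Srd5a2, and the median log2 ratio of the 9 was 1.97 against 0.00 over all genes. In HFD+JT003 over HFD, 0 of the 9 were called, against 1.67% of all genes, and the log2 ratios ran from -0.61 to 0.96. In CCl4 over Oil, 3 of 10 were called against 7.26% of all genes: Akr1c18 and Srd5a2 rose and Hsd3b5 fell. In CCl4+JT003 over CCl4, 2 of 10 were called against 4.46% of all genes, with Hsd3b2 higher and Akr1c18 lower. Srd5a1, Hsd11b1 and Hsd17b13 were called in none of the 4.

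**Figure D2:**
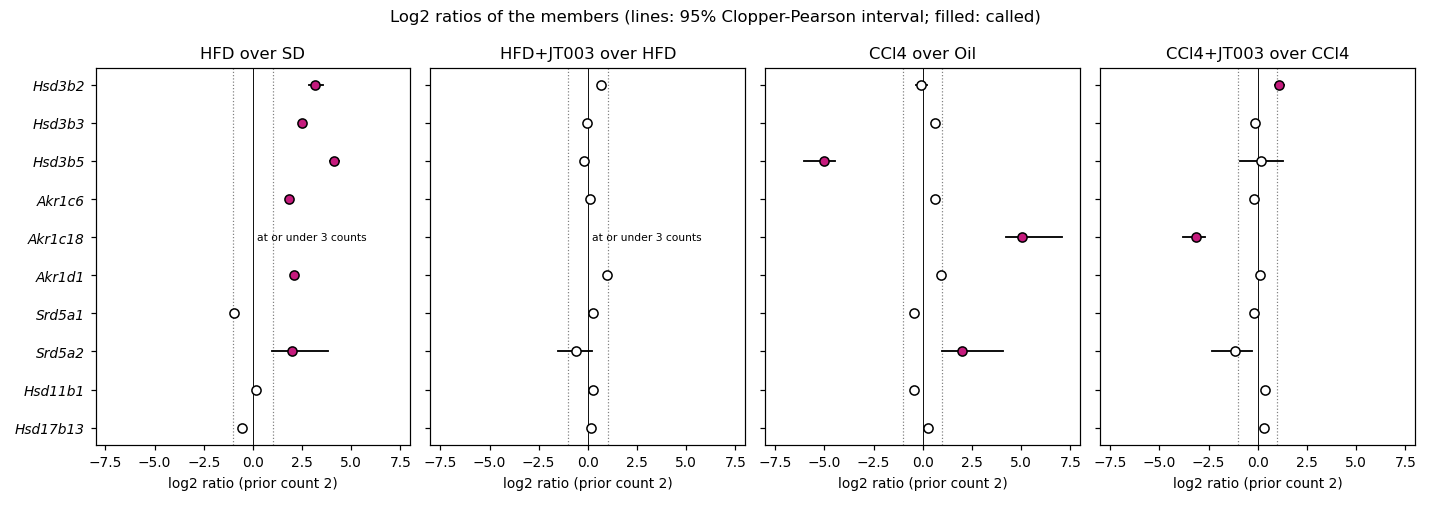
Log2 ratio of each enzyme (horizontal axis, prior count 2) in the 4 comparisons, with 95% Clopper-Pearson intervals as lines, filled points for called genes and dotted lines at a log2 ratio of 1 and -1. Hsd3b5 lies at 4.14 in HFD over SD and at -5.02 in CCl4 over Oil, and the Akr1c18 points lie at 5.02 in CCl4 over Oil and -3.13 in CCl4+JT003 over CCl4.

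Among the 3β-hydroxysteroid dehydrogenases, Hsd3b5 (gene ID 15496) rose in the diet model and fell in the fibrosis model. Reads numbered 186 in SD, 3521 in HFD, 3081 in HFD+JT003, 454 in Oil, 15 in CCl4 and 17 in CCl4+JT003. It was thus high in both HFD libraries, intermediate in the 2 controls and close to absent in both CCl4 libraries. Hsd3b5 rose 17.8-fold in HFD over SD (95% interval 15.3 to 20.7), without the prior count, and its log2 ratio with the prior was 4.14. In CCl4 over Oil it fell by 5.02 on the log2 scale (interval -6.06 to -4.47). JT003 left no call in either model, with log2 ratios of -0.22 in the diet model (-0.29 to -0.15) and 0.15 in the CCl4 model (-0.92 to 1.27), the latter resting on 17 and 15 counts. The authors' pooled CCl4 column, which sums to 2.97 times the CCl4 library and does not name its libraries, gave 62 counts of Hsd3b5, and with the CCl4 library taken out of it 46 counts remained. Against Oil those gave log2 ratios of -4.72 and -4.57, and CCl4+JT003 over them turned to -0.24 and -0.36.

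Hsd3b5 is one of the genes that male mouse liver expresses more than female liver, so a list of 18 other male-biased genes was set beside it. In CCl4 over Oil 16 of those 18 were called lower, against 2.46% of all genes, and their median log2 ratio was -3.0. In HFD over SD 2 rose and 4 fell among the 18, against 5.44% of all genes called in either direction, with a median of -0.23. Of 18 female-biased genes, 14 were above 3 counts in CCl4 or Oil. In CCl4 over Oil 6 of these rose and 3 fell, against 7.26% of all genes called in either direction. In HFD over SD 12 stood above 3 counts, and 3 rose and 4 fell, against 5.44%. The summed FPKM of the hepatocyte markers was 53777 in Oil and 58120 in CCl4, and that of 5 cholangiocyte markers was 26.7 and 104. The part of other cell types in the Hsd3b5 values was not tested.

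Among Hsd3b2, Hsd3b3 and Hsd3b5, Hsd3b3 (15494) was the most abundant in every library by FPKM. SD held 690 counts of it, HFD 4202, HFD+JT003 4197, Oil 1015, CCl4 1884 and CCl4+JT003 1750. Hsd3b3 rose 5.72-fold in HFD over SD (5.27 to 6.2), and the HFD and HFD+JT003 libraries were not separated (log2 ratio -0.02, -0.09 to 0.04). In CCl4 over Oil its log2 ratio was 0.60 (0.49 to 0.72), under the threshold and opposite in sign to that of Hsd3b5.

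Hsd3b2 (15493) was the scarcest of the 3 in SD by FPKM (1.88), with 69 counts there, 677 in HFD and 1111 in HFD+JT003, and it had 212 in Oil, 247 in CCl4 and 537 in CCl4+JT003. The highest level in each model was in the JT003 library. Hsd3b2 rose 9.21-fold in HFD over SD (7.18 to 12). In CCl4+JT003 over CCl4 it rose 2.16-fold (1.85 to 2.52), and in HFD+JT003 over HFD its log2 ratio of 0.69 (0.55 to 0.83) was under the threshold. With the pooled CCl4 counts, or the pooled counts without the CCl4 library, the CCl4+JT003 ratio was 0.94 or 0.88 and the gene was no longer called. CCl4 and Oil did not separate (log2 ratio -0.07, -0.34 to 0.20).

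Hsd3b7, at 207 FPKM in Oil and 190 in CCl4, was left out of the family sum and of the shares below. The genes summed were Hsd3b1, which had 0 or 1 count per library, Hsd3b2, Hsd3b3 and Hsd3b5. Their sum held 945 counts in SD, 8401 in HFD, 8389 in HFD+JT003, 1681 in Oil, 2147 in CCl4 and 2304 in CCl4+JT003. The sum had a log2 ratio of 3.06 in HFD over SD (2.96 to 3.16) and of 0.06 in CCl4 over Oil (-0.03 to 0.16). What differed in CCl4 was the make-up of this sum. Hsd3b5 made up 27.2% of the summed FPKM in Oil and 0.76% in CCl4, while Hsd3b3 made up 61.5% and 88.5%. In HFD the share of Hsd3b5 in this sum was 43.1%, against 20.6% in SD. Sequence shared within the family limits how reads can be told apart: of all 50-base words in the GENCODE transcripts of Hsd3b3, 23.7% also occur in Hsd3b2, and of those of Hsd3b5 18.2% occur in Hsd3b4, a gene listed in no library here.

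**Figure D3:**
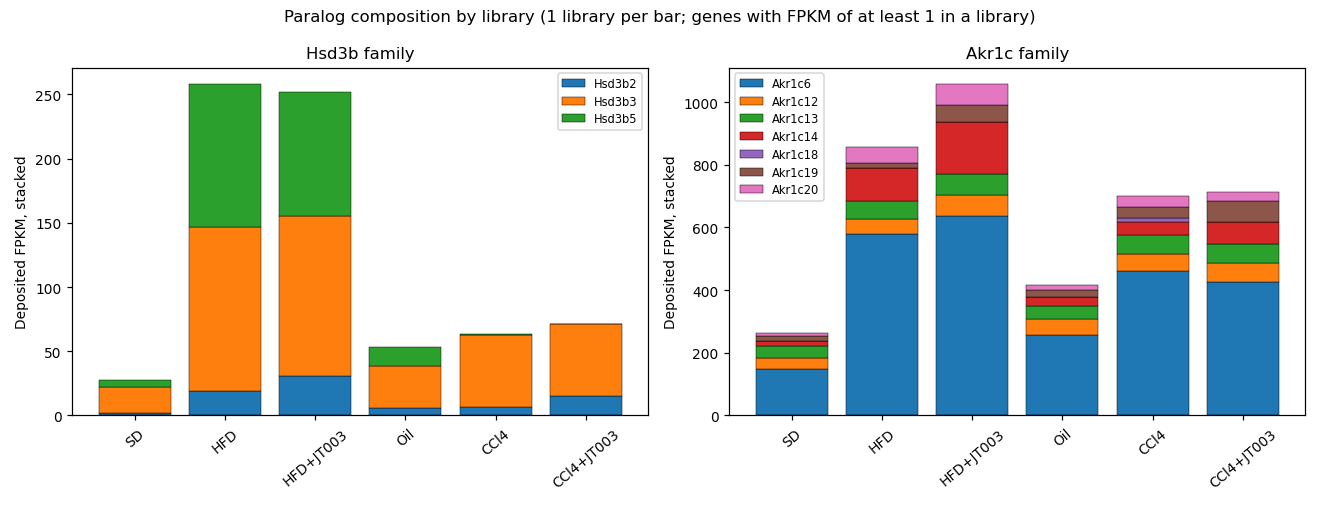
Deposited FPKM of the Hsd3b genes, Hsd3b7 left out, and of the Akr1c genes, stacked by library (vertical axis, linear from 0, 1 library per bar, genes that reach an FPKM of 1). The green Hsd3b5 layer is 111 FPKM in HFD and 0.48 in CCl4, and the Akr1c bars are mostly Akr1c6, with Akr1c18 (11.2 FPKM) visible in CCl4 alone.

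The promoters of Hsd3b5 and Hsd3b3 are shown because these paralogs rose together with HFD and differed in CCl4. Each runs from 250 bases before to 50 bases after the annotated start, 5′ to 3′ on the minus strand, from RefSeq on GRCm38.p6, a build other than the mm9 named in the submitters' processing notes. They lie at chr3:98645485-98645784 for Hsd3b5 and chr3:98762361-98762660 for Hsd3b3, 1 of its 2 annotated starts. Capitals mark the runs of at least 8 bases that are identical in a global alignment of the pair.
Hsd3b5: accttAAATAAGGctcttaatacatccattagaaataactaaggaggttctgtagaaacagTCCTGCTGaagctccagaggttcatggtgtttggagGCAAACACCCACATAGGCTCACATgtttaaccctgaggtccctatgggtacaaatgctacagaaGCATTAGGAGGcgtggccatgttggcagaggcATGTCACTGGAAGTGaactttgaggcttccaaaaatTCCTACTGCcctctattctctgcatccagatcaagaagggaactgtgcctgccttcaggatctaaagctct
Hsd3b3: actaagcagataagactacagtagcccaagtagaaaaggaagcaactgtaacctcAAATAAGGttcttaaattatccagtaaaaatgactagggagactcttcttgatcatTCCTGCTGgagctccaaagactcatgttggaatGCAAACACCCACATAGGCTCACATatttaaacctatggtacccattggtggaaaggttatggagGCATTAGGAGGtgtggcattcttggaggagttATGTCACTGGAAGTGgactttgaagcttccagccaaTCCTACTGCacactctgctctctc
The pair was 55.1% identical over the alignment, with 6 such runs, the longest of 24 bases. All 10 enzymes had a promoter in the table. None held, on either strand, the STAT5 motif (TTC and GAA with 3 bases between), the DR1 motif (AGGTCA and AGGTCA with 1 base between), the glucocorticoid response element (GNACA and TGTNC with 3 bases between) or the HNF1 motif (GTTAAT and ATTAAC with 1 base between). Of 32851 promoters of the same length, 8.30%, 0.040%, 0.475% and 0.0091% held them. The absence says only that these letters are not in these windows.

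Of the aldo-keto reductases, Akr1c18 (105349), the progesterone-inactivating 20α-hydroxysteroid dehydrogenase, had nearly all of its reads in CCl4. It had 1 count in each of SD, HFD and HFD+JT003, so no ratio is given for the diet model, and 5 in Oil, 267 in CCl4 and 29 in CCl4+JT003. The CCl4 library stood far above the other 5, and CCl4+JT003 lay between CCl4 and Oil. Akr1c18 rose in CCl4 over Oil with a log2 ratio of 5.02 (4.21 to 7.08). In CCl4+JT003 over CCl4 it fell by 3.13 (-3.82 to -2.66). CCl4+JT003 over Oil gave 1.90 (0.85 to 3.96) and was not called. The pooled CCl4 column held 985 counts and 718 without the CCl4 library, with log2 ratios over Oil of 5.49 and 5.52 and of CCl4+JT003 over them of -3.43 and -3.52. The proliferation markers Mki67, Top2a, Cdc20 and Ccnb1 moved with it, with a summed FPKM of 0.93 in Oil, 55.2 in CCl4 and 2.55 in CCl4+JT003, and 0.45 to 1.12 in the diet model. All 4 of them had reads in every library. Their part in the Akr1c18 values was not tested.

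Akr1c6 (83702), the 17β-hydroxysteroid dehydrogenase of this family in mouse liver, was plentiful throughout, with 4018 counts in SD, 15416 in HFD, 17053 in HFD+JT003, 6731 in Oil, 12505 in CCl4 and 11177 in CCl4+JT003. Each of the 5 steps in the order of its levels was separated by counting error, from SD at the bottom to HFD+JT003 at the top. Akr1c6 rose 3.60-fold in HFD over SD (3.48 to 3.73). The log2 ratio in CCl4 over Oil, 0.61 (0.56 to 0.65), was under the threshold, and those of JT003 over each model were 0.12 and -0.17. Only 1.68% of the 50-base words of Akr1c6 occur in another gene, Akr1c20. Akr1c6 held 55.8% to 67.5% of the FPKM summed over 9 Akr1c genes. That family sum had log2 ratios of 1.66 in HFD over SD, 0.32 in HFD+JT003 over HFD, 0.50 in CCl4 over Oil and 0.00 in CCl4+JT003 over CCl4.

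Akr1d1 (208665), the 5β-reductase, had 312 counts in SD, 1424 in HFD, 2815 in HFD+JT003, 758 in Oil, 1783 in CCl4 and 1951 in CCl4+JT003. Both models lay above their controls and each JT003 library above its model. In CCl4+JT003 over CCl4 the log2 ratio was only 0.12 (0.03 to 0.21) and was not called. The rise in HFD over SD was 4.28-fold (3.79 to 4.86). The next steps fell just under the threshold: 0.96 in HFD+JT003 over HFD (0.87 to 1.05) and 0.94 in CCl4 over Oil (0.82 to 1.07). Scaled by total reads, the latter became 1.18 and was called. In HFD+JT003 over SD the gene rose 8.34-fold (7.41 to 9.40) and in CCl4+JT003 over Oil 2.09-fold (1.92 to 2.28). No 50-base word of Akr1d1 occurs in another gene.

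The 5α-reductases differed in level and in direction. Srd5a1 (78925), the main form of liver, had 2365 counts in SD, 1314 in HFD, 1587 in HFD+JT003, 1819 in Oil, 1632 in CCl4 and 1432 in CCl4+JT003. It was highest in the 2 control libraries, and its log2 ratio was -0.94 in HFD over SD (-1.04 to -0.84) and -0.44 in CCl4 over Oil (-0.54 to -0.35), neither past the threshold. Srd5a2 (94224), the form of androgen target tissues, was near the detection limit with 6 counts in SD, 31 in HFD, 20 in HFD+JT003, 5 in Oil, 31 in CCl4 and 13 in CCl4+JT003. Both model libraries held more than their controls. Srd5a2 rose in HFD over SD (log2 ratio 1.97, 1.00 to 3.83) and in CCl4 over Oil (2.0, 0.97 to 4.06). Its log2 ratios for JT003 were -0.61 (-1.54 to 0.20) and -1.15 (-2.32 to -0.29), and neither was called. By FPKM, Srd5a2 stood at 1.88 in HFD where Srd5a1 stood at 24.6.

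Hsd11b1 (15483), which reactivates glucocorticoid, had 7235 counts in SD, 8635 in HFD, 10432 in HFD+JT003, 7176 in Oil, 6387 in CCl4 and 8318 in CCl4+JT003. The JT003 library was the higher of the pair in both models, with log2 ratios of 0.25 (0.21 to 0.29) and 0.37 (0.32 to 0.42) that lie within the threshold. Hsd17b13 (243168) had 10173 counts in SD, 7316 in HFD, 8212 in HFD+JT003, 8760 in Oil, 12862 in CCl4 and 16269 in CCl4+JT003. Its log2 ratio was -0.57 in HFD over SD (-0.61 to -0.52) and 0.27 in CCl4 over Oil (0.23 to 0.31). The JT003 libraries again lay above the models, by 0.14 and 0.33 on the log2 scale. With counts this high the intervals exclude 0 for both genes, and with 1 library per group the spread between mice is not known.

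The JT003 libraries were also set against the control libraries, which these comparisons share with those of the models. In HFD+JT003 over SD, 5 of 9 enzymes rose (5.98% of all genes called and 3.2% called higher): Hsd3b2, Hsd3b3, Hsd3b5, Akr1c6 and Akr1d1. In CCl4+JT003 over Oil, 3 of 10 were called (5.06% of all genes), with Hsd3b2 and Akr1d1 higher and Hsd3b5 lower by 4.87 on the log2 scale (-5.83 to -4.34). The 2 controls also differed. By the study's methods the diet model ran for 16 weeks and the CCl4 model for 6, and only Oil was given oil injections. Age at harvest may therefore differ between these controls, and its part was not tested. In Oil over SD, 3 of 10 were called (5.52% of all genes, 2.24% called higher), all higher in Oil: Hsd3b2 3.41-fold (2.59 to 4.54), Hsd3b5 2.71-fold (2.28 to 3.23) and Akr1d1 2.7-fold (2.36 to 3.09). Each of these exceeds the 2.16-fold difference of Hsd3b2 in CCl4+JT003 over CCl4.

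The other genes of the pathway were described from a list, of which 38 genes are reported, 34 were in the files and 25 stood above 3 counts. In HFD over SD 5 rose and 2 fell, against 5.44% of all genes called. Relatives of the aldo-keto reductases above, Akr1c14 (3α-hydroxysteroid dehydrogenase, 831 to 5101 counts, log2 ratio 2.52) and Akr1c20 (315 to 1351 counts, 2.0), rose with Akr1c6. Hsd17b6, which oxidizes androgen metabolites, rose by 2.38, Serpina6, the corticosteroid-binding globulin of plasma, by 2.15 and Cyp21a1, the steroid 21-hydroxylase, by 3.89 from 38 counts. Cyp17a1, the 17α-hydroxylase, fell by 3.03 (786 to 101 counts) and Hsd17b7, which also serves cholesterol synthesis, fell by 1.88. In HFD+JT003 over HFD, 3 of the 25 were called against 1.67% of all genes: Akr1c19 rose (409 to 1325 counts, 1.67) and Serpina6 rose again (2492 to 6149 counts, 1.28), while Cyp21a1 fell by 1.72.

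In CCl4 over Oil 1 of these genes rose and 3 fell, against 7.26% of all genes called. Hsd17b6 rose from 557 to 5179 counts (log2 ratio 2.92). Cyp7b1, the oxysterol 7α-hydroxylase, fell from 4673 to 400 counts, by 3.83, and it is also on the male-biased list. Cyp17a1 fell by 2.12, and Hsd17b10, a mitochondrial dehydrogenase, fell by 1.76. In CCl4+JT003 over CCl4, Cyp17a1, Cyp21a1 and the oestrogen receptor Esr1 rose, by 1.24, 1.53 and 1.03, and none of these genes fell, against 4.46% of all genes called. These last calls rest on the single CCl4 library. With the authors' pooled CCl4 counts the ratio of Cyp17a1 turned to -0.54, and those of Cyp21a1 and Esr1 became 0.67 and 0.66. The fall of Cyp17a1 in CCl4 over Oil likewise became -0.35, whereas those of Cyp7b1 and Hsd17b10 were -3.67 and -1.92. Sult1e1, the oestrogen sulfotransferase, is named because of its pooled counts, after they were seen: it had 2 counts in Oil, 5 in CCl4 and 5 in CCl4+JT003, but 127 in the pooled column and 122 without the CCl4 library. The pooled counts gave log2 ratios of 3.60 over Oil (2.19 to 7.14) and, for CCl4+JT003 over them, -2.83 (-4.70 to -1.80), and those without the CCl4 library 3.97 (2.69 to 7.64) and -3.26 (-5.21 to -2.30). Of the partners of Hsd11b1, H6pd, which supplies its cofactor, had log2 ratios of -0.49, -0.11, 0.45 and -0.66 in the 4 comparisons in the order above, and the glucocorticoid receptor Nr3c1 had 0.38, 0.26, -0.08 and 0.42, none of them called.

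**Figure D4:**
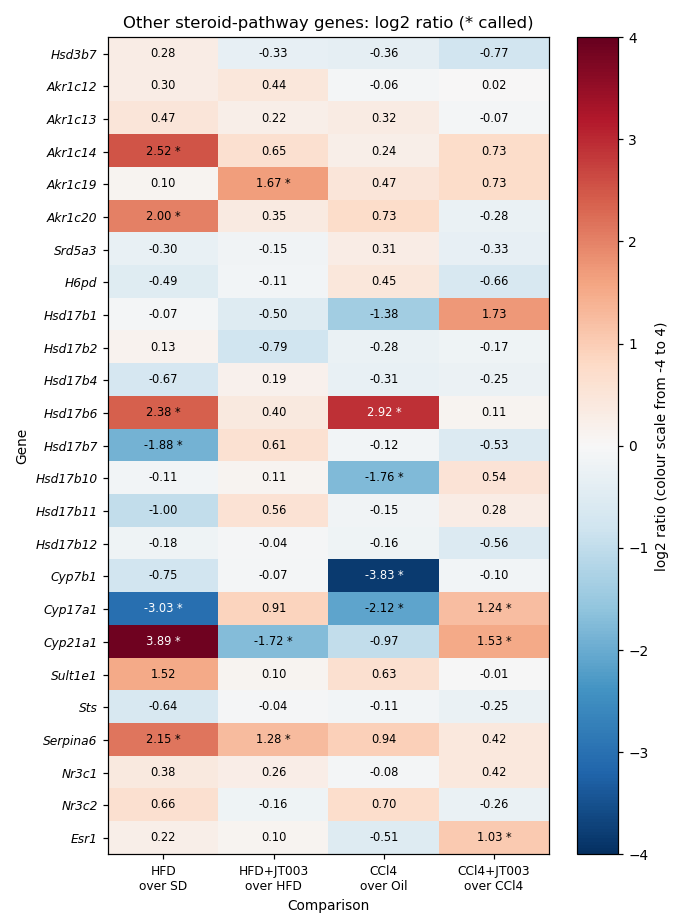
Log2 ratios (number and colour, colour scale from -4 to 4) of the 25 other steroid-pathway genes above 3 counts, with genes in rows, the 4 comparisons in columns and an asterisk on called genes. Calls number 7, 3, 4 and 3 from left to right, and Cyp17a1 is called in 3 of the 4 columns.

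For each enzyme called in at least 1 of the 4 comparisons, the 3 genes nearest in pattern over the 6 libraries were found among the 10270 genes that reached 100 counts in a library, by the root-mean-square difference of centred log2 CPM. For 3 of the enzymes the nearest gene was itself on the steroid list: Akr1c14 for Hsd3b2 (difference 0.30), Akr1c20 for Hsd3b3 (0.18) and Serpina6 for Akr1d1 (0.18). Like Akr1d1, Serpina6 was lowest in SD (525 counts) and highest in HFD+JT003 (6149 counts), with 1172 in Oil, 2757 in CCl4 and 3711 in CCl4+JT003. Akr1c6 was nearest to Postn, an extracellular matrix protein (0.17), and to Aldh1a1, a retinaldehyde dehydrogenase (0.17). Srd5a2 was nearest to Aqp8, a water channel (0.19). The genes nearest to Hsd3b5 were Nxpe2 at 1.11, Esrrg at 1.17 and Ces4a at 1.23, all of them low in both CCl4 libraries. This measure grows with a gene's own spread, which was widest for Hsd3b5 (standard deviation 3.13, against 0.66 for Akr1c6). How far that spread accounts for these larger differences was not tested. The Pearson correlation of Nxpe2 with Hsd3b5 was 0.957. For the other called enzymes, that of the nearest gene was 0.968 (Postn with Akr1c6) to 0.991 (Serpina6 with Akr1d1). Akr1c18 was nearest to the glutathione transferase Gstm3 (0.36; 304 counts in Oil, 11923 in CCl4 and 2264 in CCl4+JT003), to Lockd (0.41) and to the mitotic cyclin Ccnb2 (0.47; 18, 976 and 64 counts). Likeness over 6 libraries is a description of these libraries.

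**Figure D5:**
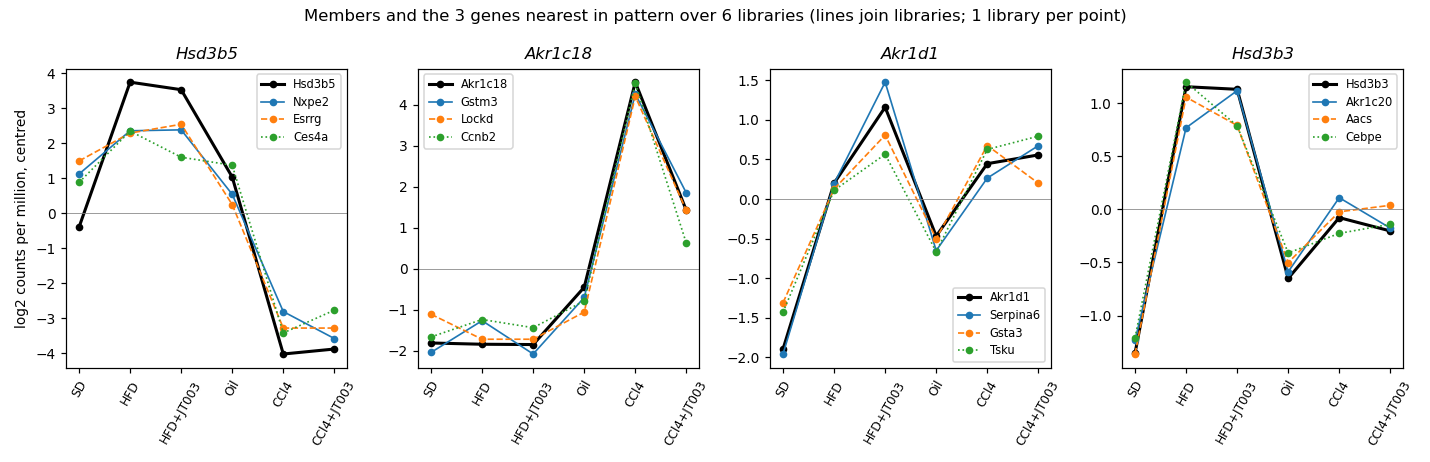
Centred log2 CPM (vertical axis) of Hsd3b5, Akr1c18, Akr1d1 and Hsd3b3 (black) and of the 3 genes nearest in pattern, by library (lines only join the 6 libraries). The Akr1c18 panel peaks in CCl4 for all 4 genes, and the Hsd3b5 panel falls to its lowest values in CCl4 and CCl4+JT003.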

How the data were processed

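Total RNA from frozen mouse liver was extracted with Trizol and sequenced on a BGISEQ-500, 1 library per group and 6 in all. The authors deposited, per library, the expected count and the FPKM of each gene. The submitters' processing notes name mm9, HISAT, Bowtie2 and RSEM, without roles or versions. Estimated counts can divide reads between paralogs. The 4 comparison tables of the authors hold fold changes and p-values, which were not used. From them only the pooled CCl4 column of expected counts was used (2.97 times the CCl4 library, with 24 genes below that library by at most 0.99), as an alternative, and 7 other expression columns were left out.

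Expected counts were rounded. Library sizes were scaled by TMM (edgeR 4.0.16, R 4.3.3) within a model's 3 libraries, or over all 6 for Oil against SD. Each pair of libraries was compared with a two-sided exact binomial test conditional on the gene's total (scipy 1.17.1, Python 3.11.15), with Benjamini-Hochberg adjustment over all genes with at least 1 read, and calls needed an adjusted p under 0.001 and a log2 ratio of at least 1 (prior count 2). Intervals (Clopper-Pearson at 95%) and fold values are without the prior, and no ratio is given where both counts are 3 or less. The test compares libraries, not conditions. It was tried on simulated counts that held counting error alone, which cannot show how it behaves with variation between livers. No edgeR quasi-likelihood fit could be made with 1 library per group. Alternatives were DESeq2 1.42.0 size factors, total reads, edgeR's negative binomial exact test at a preset coefficient of variation between livers (0.2 or 0.4), other filters, priors and thresholds, FPKM with a pseudocount of 1 or 0.1, the pooled column and family sums.

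The members and all gene lists were chosen with earlier results of these data known. The genes named were the 10 enzymes and the listed pathway genes called in at least 1 of the 4 main comparisons. H6pd, Serpina6 and Nr3c1 were named with them, and Hsd3b7 for its level. The 3 nearest genes in pattern of each called enzyme were also named. Hsd3b4, Hsd3b6, Hsd17b8 and Cyp11b1 of the pathway list were in no library, and 1 gene of that list is not reported here. Promoters came from RefSeq and transcript words of 50 bases from GENCODE, both on GRCm38, whose coordinates were not joined to the mm9 values.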

Additional observations from a re-analysis of the deposited data

Results flagged for a closer look

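Results were singled out where an enzyme's ratio went one way in the diet model and the other way in the fibrosis model, with both counting intervals clear of 0. Of 18 enzyme and contrast pairs, 5 did so, and none of the differences was tested, because each model had 1 library per group. For Hsd3b5, the log2 ratio was 4.14 in HFD over SD and -5.02 in CCl4 over Oil, a gap of 9.15. For Hsd11b1 the same ratios were 0.16 and -0.46 (gap 0.62), and for Hsd17b13 they were -0.57 and 0.27 (gap -0.83). For JT003 over the model, Akr1c6 had 0.12 in the diet model and -0.17 in the fibrosis model (gap 0.30), and Srd5a1 had 0.25 and -0.20 (gap 0.45). With the authors' pooled CCl4 counts, with and without the CCl4 library, the fibrosis-model ratio of Srd5a1 was 0.077 and 0.239, the same sign as in the diet model. Of these 5, Hsd3b5 alone was called in both models.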

How the results depend on the processing

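No paired analysis was possible because each group has 1 library and the labels share no replicate number that could pair them, and no library could be left out of a group. There were 22 calls on the 10 enzymes over 7 comparisons. All 22 stayed with DESeq2 size factors, with total reads and with genes of at least 10 counts. They also stayed with FPKM plus 1 or 0.1 on the fold alone. An adjusted p under 0.05, a prior count of 0.5 and no fold threshold each only loosen a criterion. No call could be lost with these 3. TMM over all 6 libraries lost 1, Hsd3b2 in CCl4+JT003 over Oil, where the log2 ratio was 1.00. If livers of a group are taken to vary with a biological coefficient of variation of 0.2, 13 of the 22 stayed, and at 0.4, 3 stayed: Hsd3b5 and Akr1c18 in CCl4 over Oil and Hsd3b5 in CCl4+JT003 over Oil. At 0.2, members called were 1 in CCl4+JT003 over CCl4, 1 in CCl4+JT003 over Oil and 0 in Oil over SD, and the pathway list had 0 for JT003 in either model. At 0.4, members called were 0 in HFD over SD, CCl4+JT003 over CCl4, HFD+JT003 over SD and Oil over SD and 1 in CCl4+JT003 over Oil, and the pathway list had 0 in all 4 comparisons. Over all genes, calls fell from 924 to 179 and 11 in HFD over SD at 0.2 and 0.4, from 285 to 19 and 0 in HFD+JT003 over HFD, from 1251 to 346 and 59 in CCl4 over Oil and from 775 to 165 and 0 in CCl4+JT003 over CCl4. These libraries cannot supply the spread between livers.

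With no fold threshold, members passing the test were 7 in HFD+JT003 over HFD (14.3% of all genes), 9 in CCl4 over Oil (26.3%), 6 in CCl4+JT003 over CCl4 (24.1%), 8 in HFD+JT003 over SD (26.8%), 7 in CCl4+JT003 over Oil (20.6%) and 7 in Oil over SD (29.0%). In HFD over SD every member above 3 counts passed (23.6% of all genes), with Srd5a1 and Hsd17b13 lower in HFD. The pathway list had 18, 16, 16 and 18 in the 4 comparisons, where 23.6%, 14.3%, 26.3% and 24.1% of all genes passed. FPKM plus 0.1 gave 5 members in CCl4+JT003 over Oil. Pooled CCl4 counts, with or without the CCl4 library in them, left 1 member called in CCl4+JT003 over CCl4 (Akr1c18).

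Of 783 values recomputed for single enzymes, 18 changed sign. Hsd3b2 in CCl4 over Oil, at -0.07, became 0.16 with total reads, 0.17 and 0.15 with FPKM plus 0.1 and plus 1, and 0.090 and 0.154 with the pooled counts with and without the CCl4 library. Hsd11b1 in CCl4+JT003 over Oil, at -0.09, became 0.22 with total reads and 0.22 with FPKM plus 0.1 and with FPKM plus 1 (0.217). With the pooled counts and then without the CCl4 library in them, CCl4+JT003 over CCl4 became -0.24 and -0.36 for Hsd3b5 and 0.077 and 0.239 for Srd5a1. The summed Hsd3b family, used in place of each paralog, gave 0.064 for Hsd3b2 and Hsd3b5 in CCl4 over Oil, -0.025 for Hsd3b2 in HFD+JT003 over HFD and 0.091 for Hsd3b3 in CCl4+JT003 over CCl4. The summed Akr1c family gave 0.0044 for Akr1c6 and Akr1c18 in CCl4+JT003 over CCl4, and the cause in each case is that other paralogs enter the sum. The cause of the other sign changes was not tested.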
